A study of Mus musculus with 6 samples.

Results

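The genes described here encode the nuclear subunits of the mitochondrial respiratory chain and ATP synthase, measured in mouse liver. They were chosen by gene symbol alone: probe sets with a single annotated symbol that starts with Ndufa, Ndufb, Ndufc, Ndufs, Ndufv, Uqcr, Cox4, Cox5, Cox6, Cox7, Cox8 or Atp5, or that is Sdha, Sdhb, Sdhc or Sdhd. The symbols of 90 genes matched, on 179 probe sets. Of these genes, 86 had a mean log2 signal of at least 5.5 over the arrays and were analysed, out of 12596 genes tested in all, each through its probe set with the highest mean. They fall into 33 subunit genes of complex I, 8 complex I assembly factors that the symbol rule also takes (Ndufaf1 to Ndufaf8), 4 of complex II, 8 of complex III, 16 of complex IV and 17 of ATP synthase. Ndufa4 is counted with complex IV, to which its product is now assigned.

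The study compared livers of liver-specific Chrebp knockout mice (ChLO) with livers of wild-type mice (WT), with 3 male mice and 1 array per mouse in each group. ChREBP, encoded by Mlxipl, is a transcription factor that responds to glucose metabolism and drives genes of glycolysis and fat synthesis. ChLO mice came from a cross of mice with a floxed Chrebp gene and mice with Cre under the albumin promoter, so the deletion is directed at hepatocytes and the other cells of the liver keep the gene. The labels do not say whether the WT mice carried the floxed allele or Cre. All mice of both groups were 12 weeks old and ate a diet with 60% sucrose for 1 week before the liver was frozen, so a response to the diet itself has no comparison here.

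In the respiratory chain, complex I takes electrons from NADH and complex II from succinate. Ubiquinone carries them to complex III, cytochrome c carries them on to complex IV, which reduces oxygen, and ATP synthase uses the proton gradient that complexes I, III and IV build. Most subunits are encoded in the nucleus and a small core in mitochondrial DNA, and in liver the chain reoxidises the reducing power from fatty acid and sugar oxidation.

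Values are the authors' log2 MAS5 signals, and differences are ChLO minus WT on that scale. Every array had a linear trimmed mean signal of 500, array medians lay between 6.38 and 6.60 log2 units, and pairs of arrays correlated at 0.894 to 0.954 over all probe sets. Mlxipl signals were 10.34, 11.22 and 11.48 in ChLO livers, against 12.61, 12.56 and 12.59 in WT livers. Pklr, a classical ChREBP target that encodes liver pyruvate kinase, had 9.29, 7.82 and 8.79 in ChLO livers and 12.30, 12.97 and 11.55 in WT livers. The groups did not overlap for either gene; the sources used here do not say whether the Mlxipl probe set lies in the deleted part of the gene. The differences were -1.57 (SE 0.28) for Mlxipl and -3.64 (SE 0.45) for Pklr. Neither passed an adjusted p of 0.05 in limma's fit over all 12596 genes (adjusted p = 0.185 and 0.0892), and no gene in the fit did in limma: the smallest adjusted p was 0.0528, while 1129 genes had an unadjusted p under 0.05.

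Respiratory chain genes were slightly lower in ChLO livers as a group, by less than the spread between the ChLO mice, and no single gene passed the test. The median difference over the 86 genes was -0.16 log2 units, 1.12-fold lower, with a median SE of 0.21, against a median of 0.06 over all genes tested. Among genes with a mean signal of at least 12, the range that holds 71 of the 86, the median was -0.17 over those 71 and -0.11 over all 1215. The difference was below 0 for 76 of the 86 genes, against 43.5% of all genes tested and 64.3% of those 1215 genes. None had an adjusted p under 0.05 in limma (background 0%), and the smallest adjusted p among them was 0.325. At an unadjusted p under 0.05, Ndufaf7 was higher and Ndufa8 was lower, 1 gene in each direction, where 8.96% of all genes tested reached that level in either direction, 5.46% higher and 3.5% lower. Among genes with a mean of at least 12 these shares were 11.7% in either direction, 2.72% higher and 8.97% lower. Groups did not overlap for 4 of the 86 genes, 2 higher (Cox6a2 and Ndufaf5) and 2 lower (Ndufa8 and Cox6a1), against 15.2% of all genes tested, 9.04% higher and 6.19% lower, and 18.8% of those with a mean of at least 12, 4.77% higher and 14.1% lower. In either direction together, both counts are below the background shares. The 95% interval of the difference included 0 for 84 genes and lay within 1 log2 unit of 0 for 77. A loss or gain of more than that size was therefore outside the interval for most of these genes, while smaller differences could not be resolved with 3 mice a group. Because whole liver was measured, fewer cells of a type and less RNA per cell cannot be told apart in any of these values.

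The deposited signals show a direction that depends on how arrays are scaled. With the arrays set level on 8 spike-in control probe sets in place of the average signal, the median over all genes moved to 0.29 and that over the respiratory chain genes to 0.072, with 60 of the 86 higher and 26 lower. With quantile normalization the members' median was -0.06, with 60 lower. Relative to the median of all genes, the respiratory chain genes lay 0.22 lower in the deposited scaling and 0.09 lower after quantile normalization. The spike-in scaling shifts all genes of an array equally and cannot alter this gap. Genes of like signal were closer: in the deposited scaling the median was -0.17 over the 71 members with a mean of at least 12 and -0.11 over all 1215 such genes.

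**Figure D1:**
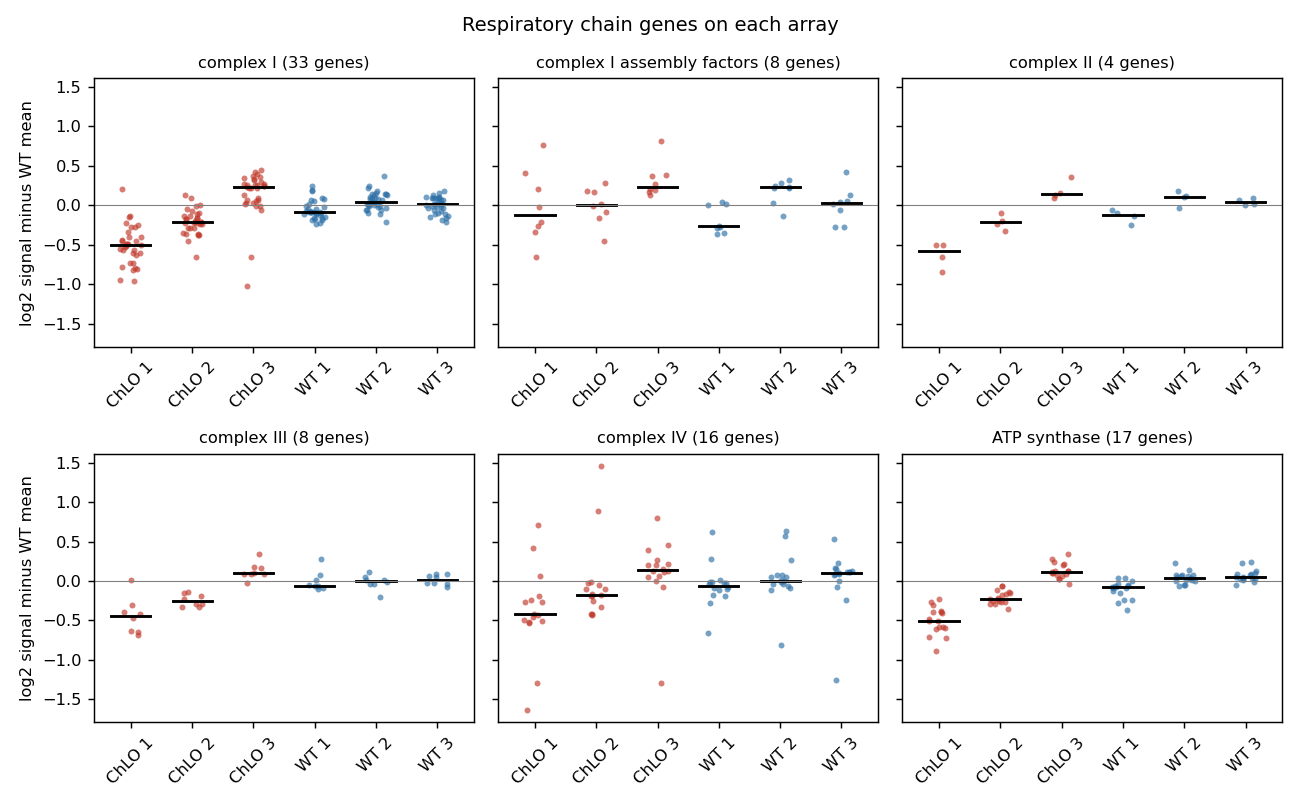
Log2 signal minus the gene's WT mean (vertical axis) on each of the 6 arrays, with a panel for each complex and for the assembly factors; a point is a gene and a bar the median of the panel's genes. Bars of the subunit panels lie between -0.58 and -0.42 for ChLO 1 and between 0.10 and 0.23 for ChLO 3, while their WT bars lie between -0.12 and 0.11. In the assembly factor panel the WT bars are at -0.27, 0.23 and 0.03 and the ChLO bars at -0.12, 0.00 and 0.24.

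The ChLO mice differed among themselves more than the groups differed, and they did so in the same way across the chain. Taken relative to each gene's WT mean, the median of the 86 genes came to -0.48, -0.19 and 0.16 on the arrays of ChLO 1, 2 and 3, against -0.08, 0.05 and 0.04 on those of WT 1, 2 and 3. The medians spanned 0.64 log2 units among ChLO livers and 0.13 among WT livers. ChLO 1 gave the lowest of all 6 signals for 71 of the 86 genes, against 22.3% of all genes tested and 46.3% of genes with a mean of at least 12. ChLO 3 gave the highest ChLO signal for 78 (39.2% and 55% in the same backgrounds) and the highest of all 6 signals for 47 (20.4% and 23.9%), and the full ranking with ChLO 1 lowest, ChLO 2 between and ChLO 3 highest held for 73 of 86 (84.9%), against 25.2% of all genes tested and 45.3% of those with a mean of at least 12. Among the 71 members in that bright range it held for 67 (94.4%). The exceptions were Cox6a1, Ndufa2, Ndufa8 and Uqcrc1. This ranking was noticed in the values and has no test. Replicate numbers carry no order of their own, so it describes 3 mice.

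The spread within the groups differed accordingly. Among the 86 genes the SD was larger in ChLO than in WT for 75, against 61.9% of all genes tested and 72.3% of those with a mean of at least 12. The median SD of a respiratory chain gene was 0.32 among ChLO livers and 0.11 among WT livers. Over all genes tested these medians were 0.35 and 0.27, and over genes with a mean of at least 12 they were 0.29 and 0.17. The members' spread among ChLO livers was thus near these backgrounds, and their spread among WT livers was below them. Once each array was centred on its own median of the 86 genes, the median SDs were 0.13 among ChLO livers and 0.11 among WT livers, so most of the extra spread in ChLO was a shift that the genes shared.

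**Figure D2:**
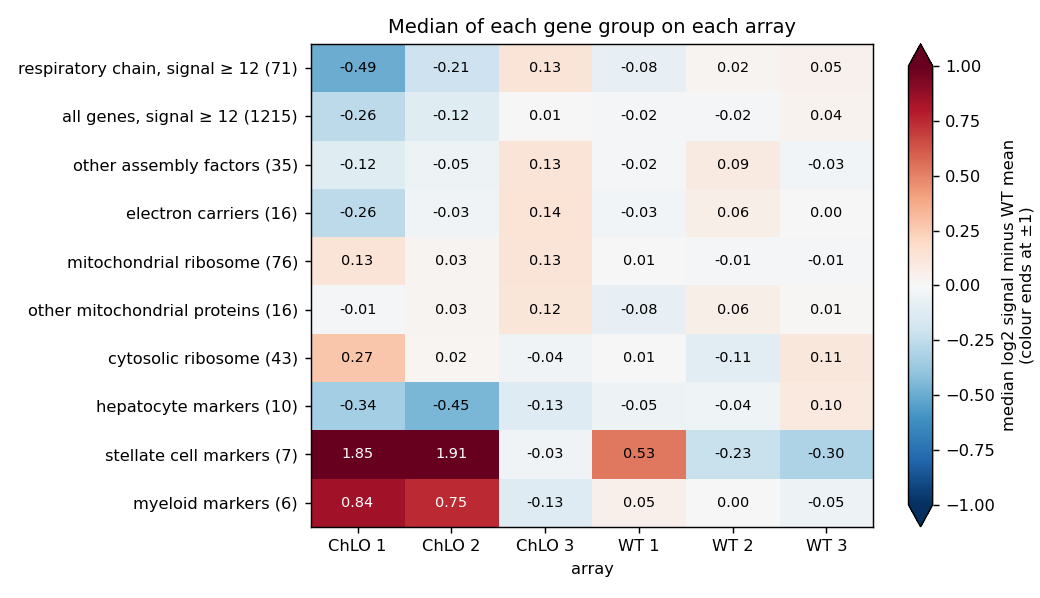
Median log2 signal minus the WT mean on each array (columns) for gene groups (rows, with the number of genes), as printed in each cell; colours end at 1 log2 unit. The 71 bright respiratory chain genes are at -0.49, -0.21 and 0.13 on the ChLO arrays and all 1215 genes of that signal range at -0.26, -0.12 and 0.01, whereas cytosolic ribosome genes are at 0.27, 0.02 and -0.04.

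Other probe sets showed the same ranking. For 49 of the genes several probe sets passed the filter, and of the 57 further probe sets with a mean of at least 10, the ranking of ChLO mice was the same in 54 and the sign of the ChLO minus WT difference was that of the chosen probe set in 46. Among 25 dimmer ones the ranking held in 12. Probe sets that match several symbols were not members, and the 6 of them with respiratory chain symbols and a mean of at least 10 all had this ranking, with differences from -0.24 to 0.07.

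Other measures also differed among the ChLO livers, some with the same ranking of mice and some with another. The 3′ minus 5′ signal of Actb, which is larger where RNA is degraded or copied incompletely, came to 0.84, 1.03 and 1.46 for the ChLO livers, against 1.13, 1.38 and 1.28 in WT livers, and the same measure for Gapdh was -0.25, -0.20 and -0.14 in ChLO livers, against -0.31, -0.14 and -0.13 in WT livers. Among markers of other liver cells, the summed linear signal of all 7 stellate cell genes was 12000, 14500 and 2920 in ChLO livers, against 5060, 2850 and 2480 in WT livers. The 6 myeloid genes of 7 that passed the filter and the remaining one, Itgam, summed to 15100, 14400 and 8550 in ChLO livers, against 9700, 9510 and 9130 in WT livers. The 5 cholangiocyte and progenitor genes with a probe set, of 6 in the list, summed to 1530, 734 and 353 in ChLO livers, against 347, 373 and 216 in WT livers. ChLO 1 and ChLO 2 thus had the high sums for all 3 lists and ChLO 3 lay near or within the WT range for them. Such a sum mostly follows its brightest genes. The mean was higher in ChLO for 7 of 7 stellate cell genes, 5 of the 6 myeloid genes and 4 of the 5 cholangiocyte and progenitor genes. It was lower for the myeloid gene Clec4f and for Krt7, and Clec4f in ChLO 1, at 9.95, was below all WT livers (10.63 to 10.67). Endothelial markers ranged from 3170 to 5120 in ChLO and from 3080 to 3810 in WT. The 3 lymphocyte markers Cd3e, Cd79a and Nkg7 were all below the filter, with sums of 106 to 137 in ChLO and 36.5 to 105 in WT. The 10 hepatocyte markers were all above the filter and summed to 378000, 344000 and 427000 in ChLO livers, against 451000, 451000 and 497000 in WT livers. Of these markers 10 of 10 were lower in ChLO, against 43.5% of all genes tested and 64.3% of those with a mean of at least 12. The part of RNA quality or of other cell types in the respiratory chain values was not tested.

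Without ChLO 3, the array with the highest member values, the median difference of the 86 genes was -0.33, and 80 of them were lower. In that comparison 17 genes had an unadjusted p under 0.05 in limma, all of them lower (background 8.04%), and 52 had no overlap in the lower direction (background 16%). None of the 86 passed over all genes, where 302 genes (2.4%) did. Leaving out the array with the highest ChLO values of most members lowers the ChLO side by construction. These counts are therefore no support for a change. Without ChLO 1 the median was -0.0056, with 44 lower and 42 higher, and no member passed. With arrays weighted by their fit in limma, 9 of the 86 had an unadjusted p under 0.05, all lower, against 9.96% of all genes tested on that side. The size of the group difference thus rested on which of the ChLO mice were included.

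Complex I, the NADH dehydrogenase, had 30 of its 33 measured subunit genes below WT, with differences from -0.70 to 0.14 and a median of -0.18. Its per-array medians were -0.50, -0.21 and 0.23 in ChLO livers and -0.08, 0.05 and 0.01 in WT livers. Ndufa8, an accessory subunit of the complex, had the smallest p of all members. Its signals were 12.34, 12.47 and 12.46 in ChLO livers, against 13.32, 13.11 and 12.93 in WT livers, or 12.42 ± 0.07 and 13.12 ± 0.19 (SD, n = 3 each). The 3 ChLO values nearly coincided and all lay below the WT values, so Ndufa8 did not share the spread that marked the other subunits: its range among ChLO livers, 0.13, was the narrowest of the 71 bright members. The difference was -0.70 (SE 0.16, 95% interval -1.08 to -0.32), with an unadjusted p of 0.0029 and an adjusted p of 0.325 in limma's fit over all genes tested. Its unadjusted p was under 0.05 in all 16 alternative analyses, and its adjusted p was under 0.05 in only 1 of them, array weights, at 0.039. In that fit 568 of 12596 genes passed, and the estimate of the weights gave a convergence warning. Only 1 probe set measured Ndufa8.

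The bases before the annotated starts of the members were searched for motifs of factors known for mitochondrial genes. NRF1, a factor that activates many nuclear genes of the respiratory chain, binds sequences like GCGCA and GCGC with 1 base of any kind between them. In the 250 bases upstream of the start, as given by RefSeq (GRCm38.p6), this motif was found on either strand in 12 of 76 windows of 71 members (15.8%), against 1228 of 32851 windows of all genes (3.74%). The windows belong to 11 genes, Atp5c1, Atp5g2, Atp5h, Atp5k, Cox6a1, Ndufa5, Ndufa8, Ndufaf4, Ndufs5, Sdha and Sdhd. Ndufa8 and Cox6a1 are shown because their groups did not overlap on the lower side, and Atp5h because it also holds a GABPA motif, CCGGAAGT on either strand. Neither Ndufa8 nor Cox6a1 had the shared ranking of mice. Each line gives the 250 bases upstream of the start, 5′ to 3′ on the gene's strand, which is the minus strand for all 3, with the motif matches in capitals.
Ndufa8, chr2:36049339-36049588: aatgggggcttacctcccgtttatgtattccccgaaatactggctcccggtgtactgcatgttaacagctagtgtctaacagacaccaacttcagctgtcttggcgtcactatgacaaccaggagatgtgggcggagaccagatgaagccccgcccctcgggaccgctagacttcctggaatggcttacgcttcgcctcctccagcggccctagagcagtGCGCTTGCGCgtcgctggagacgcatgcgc
Cox6a1, chr5:115348959-115349208: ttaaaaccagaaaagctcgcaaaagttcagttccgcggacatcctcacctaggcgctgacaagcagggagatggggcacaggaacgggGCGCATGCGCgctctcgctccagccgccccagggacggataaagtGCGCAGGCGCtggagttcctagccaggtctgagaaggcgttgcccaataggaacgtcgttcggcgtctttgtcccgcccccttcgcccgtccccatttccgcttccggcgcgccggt
Atp5h, chr11:115419920-115420169: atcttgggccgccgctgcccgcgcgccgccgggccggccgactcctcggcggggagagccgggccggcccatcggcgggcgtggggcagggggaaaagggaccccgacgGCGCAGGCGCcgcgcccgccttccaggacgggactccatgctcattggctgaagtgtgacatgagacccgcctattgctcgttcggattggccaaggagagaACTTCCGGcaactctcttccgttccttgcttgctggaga
The NRF1 match begins 30 bases upstream of the start in Ndufa8, at 162 and 117 bases in Cox6a1, and at 141 bases in Atp5h, whose GABPA match begins 39 bases upstream. A letter match is no evidence of binding, and the windows of all genes were not matched to the members in base content or signal. No difference between members with and without the motif was tested. The 11 genes that hold it had a median of -0.24, with per-array medians of -0.65, -0.23 and 0.15 in ChLO 1, 2 and 3, and the 60 without it had a median of -0.16, with -0.47, -0.19 and 0.19. The other motifs were rarer or closer to their background. GABPA was in 3.95% of member windows and 2.88% of all windows, YY1 (AAGATGGCG) in 1.32% and 0.606%, ERRA (TCAAGGTCA) in 1.32% and 0.387%, and the E-box CACGTG, the core of the element that ChREBP binds in pairs, in 9.21% and 6.02%. The E-box windows belong to Atp5g1, Atp5g3, Atp5l, Atp5pb, Ndufa7 and Ndufv1.

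Of the 33 complex I subunit genes, 30 had the shared ranking of mice. The others were Ndufa8, Ndufa2 and Ndufb1, of which Ndufa2 and Ndufb1 are named here after their values were seen. Ndufb1, a dim subunit gene, had 7.83, 7.62 and 6.96 in ChLO livers and 8.23, 7.78 and 7.94 in WT livers, so that here ChLO 3 was the lowest liver, and its difference was -0.51 (SE 0.31, adjusted p = 0.636 in limma). Ndufv3, a small accessory subunit of the NADH-binding module, had 12.58, 13.18 and 13.56 in ChLO livers and 13.44, 13.51 and 13.67 in WT livers. ChLO 1 was well below the WT range and ChLO 3 was inside it, and the difference of -0.43 (SE 0.25) had an adjusted p of 0.634. Ndufb8, an accessory subunit of the membrane arm, had 12.69, 13.18 and 13.70 in ChLO livers and 13.55, 13.85 and 13.50 in WT livers, a difference of -0.45 (SE 0.26, adjusted p = 0.635 in limma). Ndufb10, chosen after its values were seen, had the widest ChLO range of the bright members, with 11.79, 12.40 and 13.06 in ChLO livers, against 12.53, 12.72 and 12.60 in WT livers. The 3 ChLO mice spanned 1.27 log2 units for this membrane-arm subunit and the WT mice 0.19. The membrane-arm subunit gene Ndufb9 had 13.99, 14.26 and 14.83 in ChLO livers and 14.34, 14.54 and 14.59 in WT livers, so its ChLO values lay on both sides of WT too. Ndufs1 and Ndufv1, core subunits that carry iron-sulfur clusters, had differences of -0.12 (SE 0.26) and -0.10 (SE 0.20). Ndufab1, the mitochondrial acyl carrier protein, had 12.76, 13.13 and 13.30 in ChLO livers and 13.12, 13.03 and 12.97 in WT livers, so the groups overlapped. Ndufs4, an accessory subunit of the matrix arm whose loss causes complex I deficiency, was the complex I subunit gene furthest in the other direction, and was chosen after its values were seen. It had 12.01, 12.28 and 12.57 in ChLO livers and 12.06, 12.17 and 12.21 in WT livers, a difference of 0.14 (SE 0.18) within overlapping groups. Dimmer probe sets of Ndufs4, with means of 9.74, 8.46 and 5.67, differed by 0.09, -0.74 and 0.87, so its direction depended on the probe set.

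After each array was centred on its median of the 86 genes, Ndufs4 was at -0.86, -0.94 and -1.03 in ChLO livers, against -1.29, -1.33 and -1.28 in WT livers, so that relative to the other members all 3 ChLO livers were higher, by 0.36. Ndufa8 was 0.48 log2 units lower on this centred scale but its groups overlapped, with -0.53, -0.76 and -1.14 in ChLO livers and -0.04, -0.39 and -0.55 in WT livers. The subtracted median was itself 0.22 log2 units lower in ChLO livers, which moves every gene by that much towards higher values. On the centred scale the groups did not overlap for 6 of the 71 bright members on the higher side and for 2, Ndufv3 and Uqcr10, on the lower side, against 6.09% and 7.41% of the 1215 genes of that signal range centred in the same way, so the share on the higher side was near its background. This centring was chosen after the values were seen and carries no test.

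The 8 complex I assembly factors, which build the complex but are not part of it, are described on their own. Their mean signals, 8.46 to 11.49, were below those of most subunits, and no difference from the subunits was tested. Among all 15 members with a mean below 12, these 8 included, the median was -0.01 and the ranking held in 6 (40%). The assembly factors' median difference was 0.02, with 4 of 8 lower, and the ranking of ChLO mice held in 4 of 8. The per-array medians were -0.12, 0.00 and 0.24 in ChLO livers, against -0.27, 0.23 and 0.03 in WT livers. Ndufaf7, an arginine methyltransferase that modifies a core subunit during assembly, had 9.55, 9.06 and 9.59 in ChLO livers and 8.41, 9.09 and 8.83 in WT livers. ChLO 1 and ChLO 3 exceeded all WT values and ChLO 2 did not, and the difference was 0.62 (SE 0.25), with an unadjusted p of 0.040 and an adjusted p of 0.538 in limma. The unadjusted p was under 0.05 in 7 of the 15 alternative analyses that tested the gene and not in the other 8. Ndufaf5, an arginine hydroxylase that acts early in assembly, had 8.71, 8.48 and 8.67 in ChLO livers and 8.33, 8.33 and 8.25 in WT livers. All ChLO values were higher than all WT values, yet the difference of 0.32 had an adjusted p of 0.638.

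**Figure D3:**
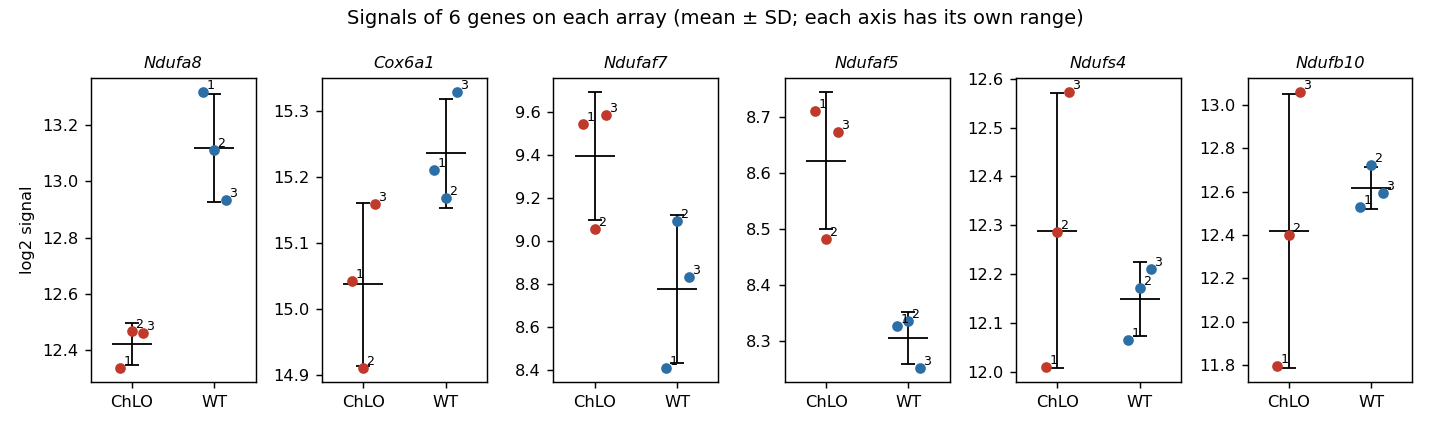
Log2 signals of Ndufa8, Cox6a1, Ndufaf7, Ndufaf5, Ndufs4 and Ndufb10 in each liver; points are mice with their replicate number, bars give the mean and SD of 3, and each panel has its own axis range. Ndufa8 shows 3 close ChLO values below the WT values, while the ChLO values of Ndufb10 lie on both sides of them.

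Complex II, succinate dehydrogenase, was lower for 4 of 4 genes and showed the shared ranking in 4 of 4, with a median of -0.21. Sdha, the catalytic flavoprotein, had 12.77, 13.41 and 13.76 in ChLO livers and 13.54, 13.57 and 13.70 in WT livers. ChLO 1 alone was far below WT, and the difference of -0.29 (SE 0.25) had an adjusted p of 0.726 in limma. The iron-sulfur subunit Sdhb had 13.50, 13.68 and 14.36 in ChLO livers and 13.75, 14.19 and 14.07 in WT livers, a difference of -0.16 (SE 0.26). The membrane anchors Sdhc and Sdhd had differences of -0.16 (SE 0.20) and -0.27 (SE 0.21). No group of values was separate for any of the 4 genes.

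Complex III, the cytochrome bc1 complex, was lower for 8 of 8 genes, with differences from -0.33 to -0.06 and a median of -0.19, and the ranking held in 7. Uqcrq, a small subunit of the complex, had 13.66, 13.98 and 14.28 in ChLO livers and 14.25, 14.26 and 14.40 in WT livers, a difference of -0.33 (SE 0.20, adjusted p = 0.638 in limma). ChLO 3 reached the WT range and the other ChLO livers did not. Uqcr10 followed with -0.29 (SE 0.21) and Uqcrb with -0.21 (SE 0.20). Uqcrfs1, the Rieske iron-sulfur protein, had 13.32, 13.40 and 13.96 in ChLO livers, against 13.70, 13.58 and 13.58 in WT livers, so that its ChLO values lay on both sides of WT. The core proteins Uqcrc1 and Uqcrc2 had differences of -0.06 (SE 0.19) and -0.15 (SE 0.20), and Uqcrc1 was the complex III gene without the ranking, with 12.77, 12.46 and 12.86 in ChLO livers and 13.03, 12.55 and 12.68 in WT livers.

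Complex IV, cytochrome c oxidase, was lower for 13 of 16 genes, with a median of -0.14 and the ranking in 11. Several of its nuclear subunits exist as tissue isoforms that serve muscle, lung or testis, and these are given after the general forms. Cox4i1, the general form of the regulatory subunit, had 14.28, 14.41 and 14.64 in ChLO livers and 14.50, 14.42 and 14.63 in WT livers, a difference of -0.08 (SE 0.17). Cox5a had 14.37, 14.69 and 14.91 in ChLO livers and 14.79, 14.94 and 14.86 in WT livers, and Cox6b1 had 14.23, 14.64 and 14.95 in ChLO livers and 14.63, 14.73 and 14.85 in WT livers. Both kept ChLO 1 lowest and let ChLO 3 reach or nearly reach the highest WT value. Differences were -0.20 for Cox5a, -0.13 for Cox5b, -0.13 for Cox6b1, -0.16 for Cox6c, -0.02 for Cox7a2, -0.05 for Cox7a2l, which is a factor for supercomplexes, -0.14 for Cox8a and -0.21 for Ndufa4. Further probe sets with a mean of at least 10 had the opposite sign for Cox6c (0.14), Cox7a2 (0.09) and Cox7a2l (0.08 and 0.09). Those of Cox5a, Cox5b, Cox6b1 and Cox8a were lower too. Cox6a1, the liver form of its subunit, had 15.04, 14.91 and 15.16 in ChLO livers and 15.21, 15.17 and 15.33 in WT livers. The groups just failed to overlap and the difference was -0.20 (SE 0.17, adjusted p = 0.722 in limma). A second probe set of Cox6a1 had overlapping groups, with 13.63, 13.90 and 13.98 in ChLO livers, against 13.90, 13.83 and 14.01 in WT livers, and the sign of the difference depended on the scaling, at 0.0013 after quantile normalization and 0.033 with the spike-in scaling. Cox7c was measured only by dim probe sets, with a difference of 0.12.

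The isoforms known mainly from muscle, lung or testis were dim in these livers. Cox6a2, the heart and muscle form, had the lowest mean of all members, 6.59, with 6.90, 7.08 and 6.99 in ChLO livers, against 6.82, 6.82 and 4.94 in WT livers. Its groups did not overlap on the higher side, but 1 low WT value sets much of the difference of 0.80 (SE 0.55, adjusted p = 0.672 in limma), which was 0.17 without WT 3. Cox7a1, also a muscle form, had 6.39, 7.25 and 8.07 in ChLO livers and 7.65, 7.94 and 7.44 in WT livers. Cox6b2, a testis form, had 5.77, 8.86 and 6.12 in ChLO livers and 7.69, 6.60 and 7.94 in WT livers, a spread far larger than its difference of -0.49 (SE 0.80). Cox4i2, the lung form, differed by 0.04 (SE 0.34). Cox4i2, Cox6b2 and Cox7a1 with means of 6.90, 7.16 and 7.45 were, after Cox6a2, the nearest above the filter. The 4 genes left out had means of 5.26 (Ndufb4), 4.53 (Ndufa4l2), 3.63 (Cox8b) and 3.22 (Cox7b2). Of markers for muscle and brown fat, Mb, Myh4 and Ucp1 were below the filter too, and all 5 markers summed to 125 to 276 in ChLO and 202 to 273 in WT.

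ATP synthase genes behaved alike. All 17 genes tested were lower, with differences from -0.31 to -0.02 and a median of -0.21, and 17 of 17 had ChLO 1 lowest of all 6 livers and the shared ranking. Per-array medians were -0.50, -0.22 and 0.11 in ChLO livers, against -0.08, 0.04 and 0.05 in WT livers. Atp5c1, the central stalk subunit gamma, had 14.04, 14.30 and 14.68 in ChLO livers and 14.52, 14.72 and 14.70 in WT livers, a difference of -0.31 (SE 0.21, adjusted p = 0.662 in limma). Atp5a1, the alpha subunit of the catalytic head, had 13.30, 13.59 and 13.91 in ChLO livers and 13.84, 13.84 and 13.98 in WT livers, a difference of -0.29 (SE 0.20, adjusted p = 0.671). In both genes ChLO 3 lay inside the WT range and the other ChLO livers below it. The catalytic beta subunit, Atp5b, had 14.20, 14.33 and 14.70 in ChLO livers and 14.62, 14.53 and 14.61 in WT livers, so ChLO 3 exceeded all WT values. Atp5g3, which encodes the proton-carrying c ring subunit, differed by -0.24 (SE 0.18), and the stalk subunit gene Atp5h, whose upstream bases are shown above, had 13.71, 14.19 and 14.63 in ChLO livers and 14.14, 14.48 and 14.64 in WT livers. Atp5k, the subunit e of the membrane part, was nearest to 0, with 13.33, 13.53 and 13.87 in ChLO livers and 13.35, 13.59 and 13.84 in WT livers. No difference between the complexes was tested.

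**Figure D4:**
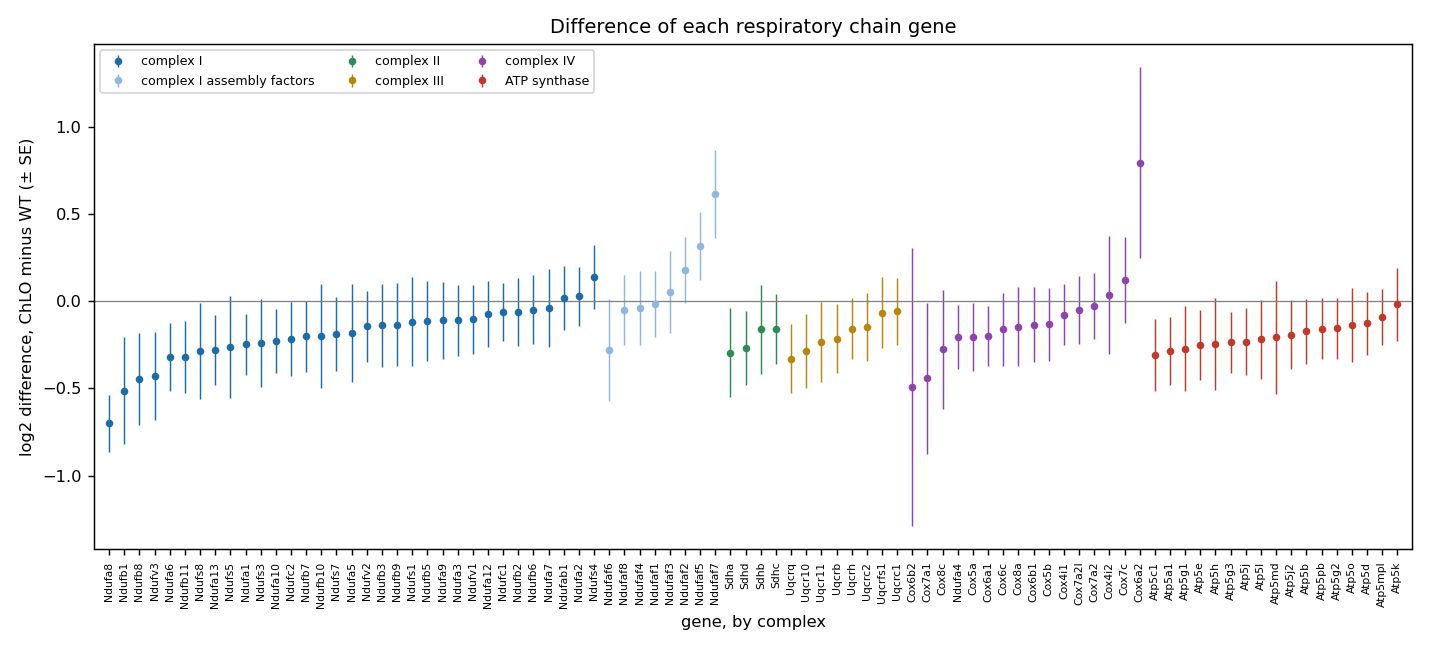
ChLO minus WT difference in log2 signal (vertical axis) of each of the 86 genes, coloured by complex; lines are the moderated SE to either side. Most points lie a little below 0, with Ndufa8 the lowest at -0.70 and Cox6a2 the highest at 0.80.

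Other mitochondrial genes were read from fixed lists for comparison, and none of their members passed an adjusted p of 0.05. The only mitochondrial DNA-encoded subunit measured was ND5 of complex I, with 15.55, 15.58 and 15.95 in ChLO livers and 15.93, 16.00 and 16.12 in WT livers, a difference of -0.33 (SE 0.19, adjusted p = 0.635 in limma). It had the same ranking of mice as the nuclear subunits. Among 35 tested assembly factors outside the symbol rule, the median was -0.01. At an unadjusted p under 0.05, 2 were lower and 0 higher, against 3.5% and 5.46% of all genes tested. The ranking held in 18 (51.4%), against 25.2% of all genes tested. Sco2, a copper chaperone for complex IV, had 9.66, 9.39 and 9.59 in ChLO livers and 10.44, 10.41 and 9.90 in WT livers. All its ChLO values were below all WT values, with a difference of -0.71 and an adjusted p of 0.449. The other was Ecsit, a complex I assembly factor, at -0.48 (SE 0.19, adjusted p = 0.532).

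The electron carrier list had 16 tested genes, of carriers, of enzymes that feed the chain and of ubiquinone synthesis. Its ubiquinone synthesis genes were Coq2 to Coq7, Coq9 and Pdss2. It also held Cyc1, a complex III subunit gene that the symbol rule does not take. The median over the 16 genes was -0.08. At an unadjusted p under 0.05, 2 were lower and 0 higher, against 3.5% and 5.46% of all genes tested. Gpd2, the mitochondrial glycerol-3-phosphate dehydrogenase that passes electrons from cytosolic NADH to ubiquinone, had 10.74, 10.80 and 10.36 in ChLO livers, against 12.00, 11.93 and 11.35 in WT livers. All 3 ChLO values were below the WT values and ChLO 3 was the lowest of them, unlike its place among the subunits. The difference was -1.13 (SE 0.23, adjusted p = 0.232 in limma). Coq9, needed for ubiquinone synthesis, differed by -0.51 (SE 0.19, adjusted p = 0.508).

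Of 17 regulators of mitochondrial biogenesis, 1 was lower and 0 higher at that level, against 3.5% and 5.46% of all genes tested. Their median was -0.06, and 9 (52.9%) had the ranking of mice, against 25.2% of all genes tested. Ppargc1a, the coactivator that works with NRF1 and other factors on respiratory genes, had 8.23, 8.67 and 9.47 in ChLO livers and 9.62, 9.72 and 9.43 in WT livers. Its ChLO mice stood in the same ranking as the subunits, ChLO 3 lay inside the WT range, and the difference was -0.80 (SE 0.31, adjusted p = 0.532 in limma). Without ChLO 3 the difference was -1.14 with an adjusted p of 0.048 in limma. Leaving out the highest ChLO value widens the difference by construction, so this p is no support for a change. In that fit 302 of all genes tested (2.4%) passed. The median of 10 tested carriers and uncoupling proteins was -0.17, and 7 of them (70%) had the ranking of the subunits. At an unadjusted p under 0.05, 1 was lower and 1 higher, against the same shares of all genes tested as for the regulators. Slc25a47, a liver mitochondrial carrier, had 12.20, 13.54 and 13.59 in ChLO livers and 14.60, 14.17 and 14.18 in WT livers (difference -1.21, SE 0.37, adjusted p = 0.455). The adenine nucleotide translocator gene Slc25a4, its form of heart and muscle, went the other way, with 10.23, 9.55 and 8.79 in ChLO livers and 8.99, 8.13 and 8.55 in WT livers (0.97, SE 0.39, adjusted p = 0.535).

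In lists of ribosomal and general mitochondrial genes the ranking of the subunits was near or below its share of 25.2% among all genes tested. That share was 45.3% among genes with a mean of at least 12. The median signal was 10.9 for mitochondrial ribosome genes, 14.2 for cytosolic ribosome genes and 12.4 for genes of import and structure, against 13.4 for the members. Of the lists described above, assembly factors had the ranking in 51.4%, the electron carrier list in 37.5%, regulators in 52.9%, and carriers and uncoupling proteins in 70%. The 76 mitochondrial ribosome genes had per-array medians of 0.13, 0.03 and 0.13 in ChLO 1, 2 and 3, and 20 of them (26.3%) had the ranking. The 43 cytosolic ribosome genes had 0.27, 0.02 and -0.04, and 2 of them (4.65%) had it. For 16 genes of mitochondrial import and structure the medians were -0.01, 0.03 and 0.12, and 4 had it. These lists were described and not tested against the subunits.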

How the data were processed

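RNA of 6 livers was hybridized to Affymetrix 3′ arrays. The authors deposited log2 signals of 45101 probe sets, made with MAS5 per the submitters' processing notes; version, parameters and genome build are not given in the sources used here. The scale was read from the values: linear signals had a mean of 500 on every array after 2% was trimmed from each end, so a change shared by most transcripts would not show, and MAS5 leaves dim signals noisy. Detection calls were not used.

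Probe sets were named through the platform annotation: 34945 had 1 symbol, 932 several and 9160 none, and 64 were controls. Genes with a mean of at least 5.5 were kept, by their highest probe set. ChLO and WT were compared with limma 3.58.1 in R 4.3.3 (lmFit, eBayes with a trend, no block), adjusting p by Benjamini-Hochberg over 12596 genes at a threshold of 0.05, after a check on simulated data. SE is limma's moderated standard error, and intervals are 95%. The labels call the samples biological replicates, so p-values measure the spread between mice, and 3 arrays a group limit the precision. Same-numbered mice had correlations of deviations of 0.304, -0.166 and 0.063, which gives no pairing of mice by number.

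The members and lists were chosen with earlier results of these data known. Named are Mlxipl and Pklr; members at an unadjusted p under 0.05 or without overlap; per complex the 3 smallest p and the highest mean; fixed common subunits, isoforms and Atp5 genes; genes at the edge of the filter; and up to 4 genes by p in each of 5 other mitochondrial lists. The members Ndufa2, Ndufa5, Ndufaf4 and Ndufs5 and others named only for a motif or the ranking of mice fall outside this rule. The 16 alternatives were other scalings, filters, fits and probe set rules, a replicate block, and each array left out. The estimate of array weights gave a convergence warning. All 86 symbols matched the RefSeq gene table, and 71 had promoter windows.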

Additional observations from a re-analysis of the deposited data

How the results depend on the processing

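No member passed the adjusted threshold under any of the 16 alternatives except Ndufa8 with array weights. The number of genes passing over all genes tested was 0 in the analysis as reported, 3 without a filter, 568 with array weights, 1 with the replicate block and 0 to 302 when 1 array was left out (302 without ChLO 3, 4 without ChLO 1). The replicate block changed no other call, and the numbers do not pair the mice; with it 1 member had an unadjusted p under 0.05. That count was also 1 with quantile normalization, without a trend and without probe sets ending in _s_at, _x_at or _a_at, and 4 with probe sets averaged within a gene. Over all genes tested, 1332 reached that level with the block, and 1040 of 12608, 1081 of 12596, 947 of 10989 and 1069 of 12596 in the other fits, in the order given. With array weights 9 members did, all of them lower (9.96% of all genes tested were lower at that level there). With 1 array left out 1 to 17 members did (17 without ChLO 3), against 700 to 2575 of 12596 genes (2575 without ChLO 3). Members without overlap numbered 4 to 54 when 1 array was left out (54 without ChLO 3). Of those 54, 52 were lower, against 16% of all genes tested, and a smaller group fails to overlap more easily. With the spike-in scaling the median differences were 0.072 over all members, 0.049 for complex I, 0.018 for complex II, 0.046 for complex III, 0.093 for complex IV, 0.025 for ATP synthase and 0.25 for the assembly factors. Complex IV was at 0.0020 after quantile normalization. The assembly factors were at -0.026 after quantile normalization and also without probe sets ending in _s_at, _x_at or _a_at. With 1 array left out, medians ranged from -0.35 to 0.012 for complex I, from -0.28 to 0.0071 for complex IV and from -0.10 to 0.14 for the assembly factors; the positive values for complexes I and IV came without ChLO 1, and the assembly factors were below 0 without ChLO 3 and without WT 1. The sign of the difference changed for 50 of the 86 members with the spike-in scaling, 36 without ChLO 1, 18 after quantile normalization and at most 9 under each other alternative. Among the 12 members followed by name, signs changed for Cox6a1 (0.0013 after quantile normalization, 0.033 with the spike-in scaling), Uqcrq (0.19 without probe sets ending in _s_at, _x_at or _a_at) and Ndufs4 (from -0.0018 without ChLO 3 to 0.28 without ChLO 1). The cause of these changes was not tested. The ranking of ChLO mice held for 71 of 86 members after quantile normalization, 72 with equal array medians and 56 with the spike-in scaling.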
